A study of Caenorhabditis elegans with 6 samples.

Results

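A set of 136 C. elegans genes gave its highest signal in 1 of 2 arrays of animals kept in the food colorant Ponceau Red. The genes were chosen by measured values: each named gene was kept when its log2 signal in Ponceau Red array 3 lay at least 2 above the highest of the other 5 arrays. That is at least a 4-fold difference. The rule was applied to the 25585 named probe sets whose symbols fall outside 21 large families (among them heat shock proteins, nuclear hormone receptors, collagens and C-type lectins), so the set is 0.532% of them. The table holds 27055 named probe sets, the 21 families included, and 29317 in all. Shares of all named probe sets below are over these 27055, and so also cover genes that the rule could not choose. Because the values of array 3 chose the genes and only 1 array carries the peak, those values are given as a description with no test.

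RNA was measured on Affymetrix gene arrays in whole animals of the wild-type strain N2. The groups were 100 µM Ponceau Red, 100 µM tartrazine and water, with 2 arrays each, called independent trials in the labels. Larvae entered S medium with the colorant or water 16 to 18 h after hatching and stayed there for 48 h at 20 °C, and the labels describe them at harvest as young adults of 3 days. Both colorants are synthetic azo dyes, and no genotype, allele or other agent distinguishes the groups. Nothing in the labels says whether the trials were separate cultures, so a p-value here reflects the spread of these arrays alone, and the small number of arrays limits the precision. Arrays carry the numbers of their columns, which for Ponceau Red are 2 and 3, and for the other groups 1 and 2.

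As background, the worm passes through larval stages that each end in a moult, and gene expression in the epidermis and other somatic tissues cycles with the moults. Oocytes and yolk, which the intestine makes, appear as the hermaphrodite reaches adulthood. Receptors with 7 membrane spans form very large gene families in this animal. Many are chemoreceptors of sensory neurons, and others are receptors for neuropeptides, the short signals that neurons release.

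Ponceau Red array 3 stood apart from its partner. Across genes, which are not independent replicates, its signals correlated with those of Ponceau Red array 2 at 0.84, with the tartrazine arrays at 0.81 and 0.83, and with the water arrays at 0.92 and 0.93. Yolk and oocyte genes split the arrays in the same way. The yolk gene vit-2 read 1.83 in Ponceau Red array 3 and 10.76 in array 2, 9.64 and 9.99 in tartrazine, and 1.75 and 2.22 in water. Over 36 oocyte, eggshell and germ line genes the median signal was 2.19 in Ponceau Red array 3 and 7.46 in array 2, 7.15 and 7.41 in tartrazine, and 3.08 and 2.54 in water. All 6 yolk genes and 35 of the 36 oocyte and germ line genes, fbf-2 being the exception, read lower in Ponceau Red array 3 and both water arrays than in any of the other 3 arrays, although the labels call all groups young adults. The 6 yolk genes lay between 1.63 and 2.29 in array 3 and between 1.57 and 3.00 in water, where the highest array median was 2.40. Some oocyte and germ line genes were well above it. mex-3 read 7.27 and 8.74 in Ponceau Red, 8.51 and 8.76 in tartrazine, and 6.42 and 6.34 in water. The part of stage in the values below was not tested. In whole animals, more cells of a type and more RNA per cell cannot be told apart.

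The peak was a property of array 3 among the dye arrays. The same rule found 0 genes for Ponceau Red array 2, 0 for either tartrazine array, 29 (0.113%) for water array 1 and 0 for water array 2. In array 3 the 136 genes read 3.83 to 9.75, all above that array's median of 2.17. Their median signal was 6.17 in Ponceau Red array 3 and 2.81 in array 2, 2.59 and 2.71 in tartrazine, and 3.33 and 3.44 in water. The difference between array 3 and the next array, called the peak difference here, ran from 2.01 to 5.07 with a median of 2.34, which is 5.05-fold. The plot of the 136 genes by array shows this single high column. For all named probe sets the median was -0.30, and 25.7% were highest in array 3. The peak difference was under 2.5 in 83 genes, at least 3 in 13 and at least 4 in 3, so most of the set lies near the threshold. Just inside it were ndnf-1, D2023.3 and W09G12.9, at 2.01 each, and just outside were nmgp-1, F36H2.5 and Y77E11A.16, at 2.00 each after rounding.

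**Figure D1:**
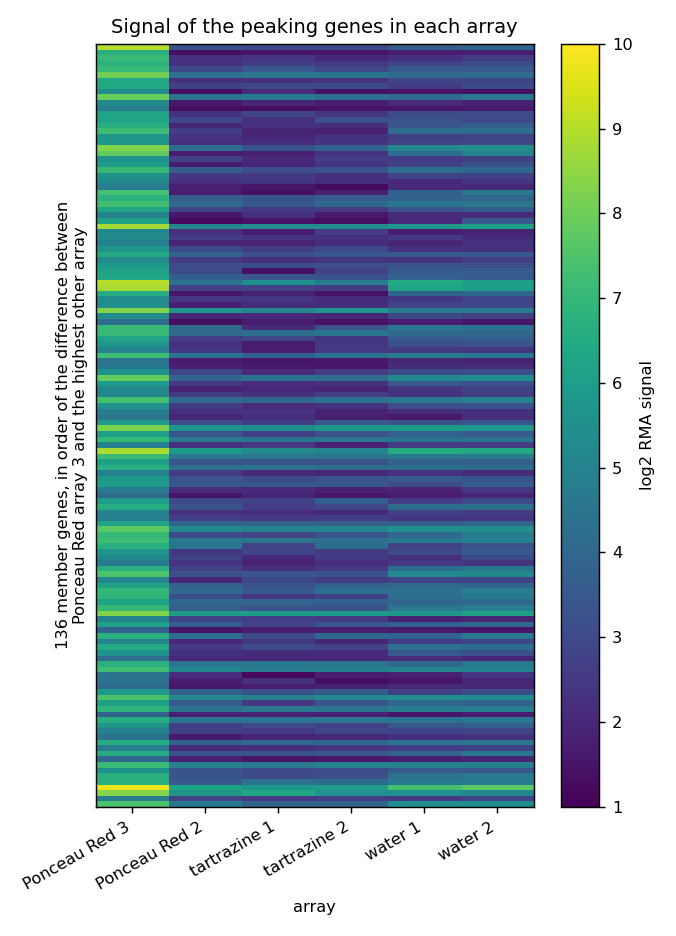
Log2 signal of the 136 genes (1 row per gene, sorted by peak difference) in Ponceau Red arrays 3 and 2, tartrazine arrays 1 and 2 and water arrays 1 and 2, on a colour scale. The column of array 3 is high throughout, with a median of 6.17, against 2.59 to 3.44 in the other 5.

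**Figure D2:**
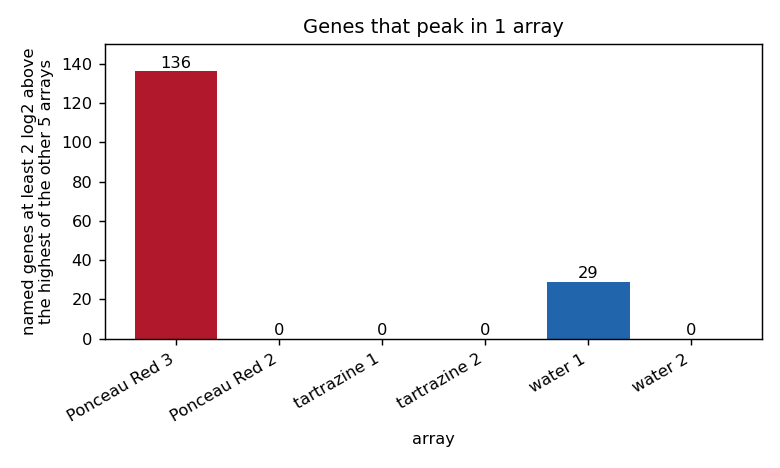
Number of genes outside the 21 families that lie at least 2 log2 above the highest of the other 5 arrays, as 1 bar per array. Ponceau Red array 3 has 136, water array 1 has 29 and the other 4 arrays have 0.

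In the 3 genes with a peak difference over 4, the other 5 arrays stayed within 1 log2 of each other. Y73B6BL.37, an uncharacterised coding gene, read 8.96 in Ponceau Red array 3 and 3.30 in array 2, 2.96 and 2.96 in tartrazine, and 3.64 and 3.88 in water, a peak of 33.6-fold over the next array. The tetraspanin gene tsp-4, of a family of membrane proteins that organise other proteins in the membrane, read 6.67 and 1.41 in the Ponceau Red arrays, 1.56 and 1.56 in tartrazine, and 1.68 and 1.76 in water. K10G6.5, which has no described product, read 7.10 and 2.24 in Ponceau Red, 2.40 and 2.05 in tartrazine, and 2.23 and 2.61 in water. In the last 2 genes the other 5 arrays lay close to or below the array medians. No detection calls were used, so such a peak difference may understate the true one. In 16 of the 136 genes all other arrays were below their medians, whereas 102 were above the median in both water arrays. For neither count was a share over all named probe sets worked out, so they are no result about the set.

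The plot of the 25 largest peak differences shows what follows them. F13E9.8, now srlf-14 (3.64), W02A2.9 (3.56), W08E12.8, now pugs-9 (3.45), F35E12.9 (3.29), D1007.19, now nssp-5 (3.24) and ZK1240.8 (3.16) came next among genes with no group below, with their peak differences in parentheses. C54E10.11 (2.98), Y9C9A.1, now txt-3 (2.93), F43C11.8 (2.92), ZK418.7 (2.91), K02E10.1, now rabr-1 (2.86), Y75B8A.37 (2.85), R07C12.3 (2.83) and H17B01.5, now nssp-13 (2.80) completed them. Array 3 lay above the other 5 arrays in each by the rule, but the level of those 5 varied. Y9C9A.1 read 6.69 and 1.94 in Ponceau Red, 2.28 and 2.22 in tartrazine, and 3.41 and 3.76 in water, so water lay between. F35E12.9 read 7.98 and 4.47 in Ponceau Red, 4.69 and 4.30 in tartrazine, and 4.06 and 4.57 in water, with no such order.

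**Figure D3:**
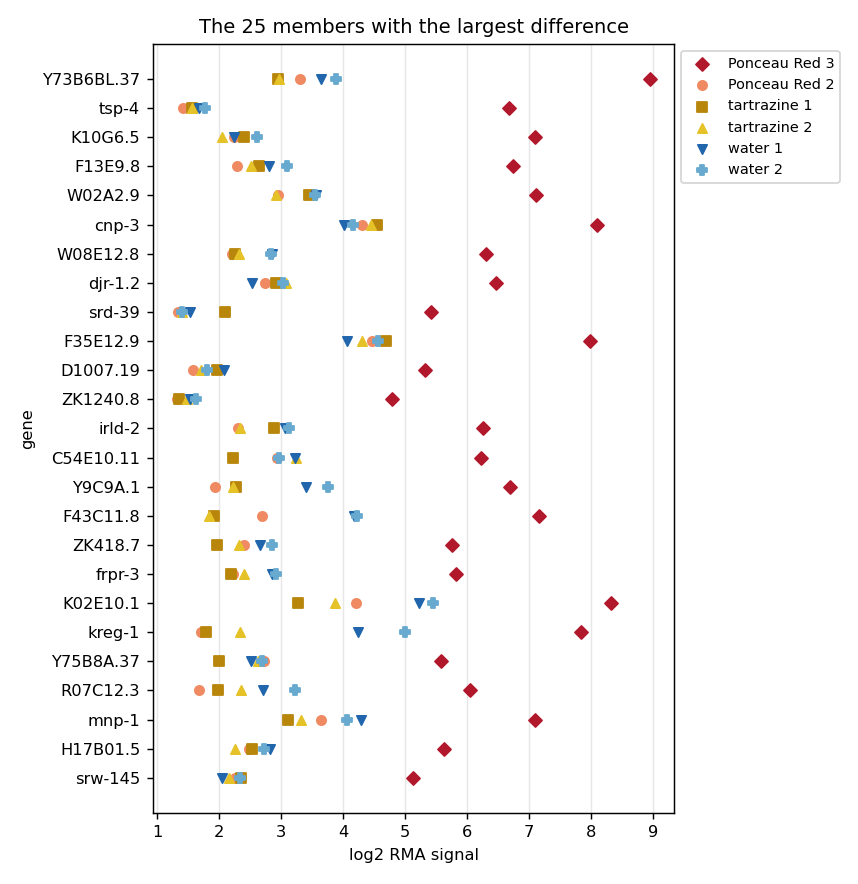
Log2 signal in each of the 6 arrays (1 point per array) for the 25 genes with the largest peak difference. The Ponceau Red array 3 point lies right of all others for each gene, by 2.78 (srw-145) to 5.07 (Y73B6BL.37).

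Receptors with 7 membrane spans formed the largest of the product groups, which were drawn up after the values were seen. By symbol or description 15 genes fell here, and the deposited gene ontology annotation placed 11 in the G protein-coupled receptor pathway, 7 of them among the 15, so that 19 genes came under either heading. That annotation covered 8.09% of the set and 2.42% of all named probe sets, and peptide receptor activity covered 5.88% and 0.706%. No such share was worked out for the 15 or the 19 genes, so their number alone is no result about the set. The shares given are descriptions and were not tested. Of the 15 receptors, srd-39, sre-14, sre-27, sre-42, sru-39, srw-145 and srr-2 belong to the families of serpentine, mostly chemosensory, receptors. The largest peak among them was in srd-39, at 5.41 and 1.33 in Ponceau Red, 2.09 and 1.39 in tartrazine, and 1.53 and 1.39 in water. frpr-3 and frpr-18 (FMRFamide peptide receptor family) and dmsr-7 and dmsr-8 (dromyosuppressin receptor related) belong to peptide receptor families. frpr-3 read 5.82 and 2.23 in Ponceau Red, 2.19 and 2.39 in tartrazine, and 2.85 and 2.92 in water. aex-2, a receptor that acts in the defecation motor programme, read 4.88 and 2.60 in Ponceau Red, 2.11 and 2.03 in tartrazine, and 2.30 and 2.18 in water. Peak differences over the 15 ran from 2.03 to 3.32 with a median of 2.18, so most receptors lay near the threshold.

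Peptide ligands and other secreted or matrix proteins made up 9 genes, with peak differences of 2.01 to 3.12. F09E8.8 and H32K21.1 are now named nlp-79 and nlp-82 as neuropeptide-like genes, and were kept because the rule read the deposited symbols. F09E8.8 read 8.23 and 5.69 in Ponceau Red, 5.42 and 5.79 in tartrazine, and 5.91 and 5.74 in water. H32K21.1 read 6.999 and 3.71 in Ponceau Red, 3.30 and 3.31 in tartrazine, and 4.56 and 4.84 in water, with water above the dye arrays other than array 3. zmp-1, a matrix metalloproteinase of the anchor cell and vulval cells, read 5.70 and 2.45 in Ponceau Red, 2.82 and 2.54 in tartrazine, and 3.04 and 3.51 in water. irld-2, with an insulin and EGF receptor L domain, read 6.25 and 2.31 in Ponceau Red, 2.88 and 2.34 in tartrazine, and 3.07 and 3.13 in water. mnp-1, of the metallopeptidase-like matrix proteins, had a peak difference of 2.81, and zig-5, a secreted immunoglobulin-domain protein that helps keep axons in place, 2.16.

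Ion channels and their partners gave 5 genes with peak differences of 2.05 to 2.54. twk-10 and twk-31 encode potassium channels with a pair of pore domains, and ggr-3, now lgc-56, a ligand-gated channel subunit. nra-1 encodes a copine, a calcium-dependent membrane-binding protein associated with nicotinic receptors, and gem-4 another copine. nra-1 read 8.28 and 5.73 in Ponceau Red, 5.18 and 5.74 in tartrazine, and 4.66 and 4.74 in water. Water was the lowest group for nra-1.

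Regulators and signalling proteins numbered 13, with peak differences of 2.07 to 3.55. cnp-3, named as a calcineurin-binding protein, had the largest, at 8.10 and 4.30 in Ponceau Red, 4.55 and 4.45 in tartrazine, and 4.01 and 4.16 in water. egrh-1, a zinc finger factor of the EGR family, read 8.78 and 5.14 in Ponceau Red, 5.40 and 5.27 in tartrazine, and 5.75 and 6.12 in water. cebp-1, a C/EBP factor known for its part in axon regeneration downstream of the DLK-1 kinase, read 8.85 and 5.90 in Ponceau Red, 5.27 and 5.05 in tartrazine, and 6.56 and 6.46 in water. The JNK-like kinase gene kgb-2 read 6.73 and 4.43 in Ponceau Red, 4.65 and 4.52 in tartrazine, and 4.05 and 4.59 in water. kreg-1, named as regulated by the related kinase KGB-1, read 7.84 and 1.72 in Ponceau Red, 1.80 and 2.33 in tartrazine, and 4.24 and 4.99 in water, with water above the dye arrays other than array 3. The remaining peak differences were 2.71 and 2.36 for the arrestin-domain genes arrd-8 and arrd-24, 2.62 for the Rab GTPase-activating protein gene tbc-8, 2.51 for the linker histone gene hil-1 and 2.40 for the scaffold gene magu-2. They were 2.31 for unc-23, a BAG-domain chaperone regulator, 2.29 for the rhomboid gene rom-1 and 2.20 for sav-1, the homologue of the Hippo pathway protein Salvador.

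Lipid and small-molecule metabolism gave 12 genes, with peak differences of 2.06 to 3.38. djr-1.2, a DJ-1 family glyoxalase, read 6.47 and 2.74 in Ponceau Red, 2.92 and 3.08 in tartrazine, and 2.53 and 3.03 in water. ncr-1, the homologue of the NPC1 cholesterol transporter, read 6.75 and 3.74 in Ponceau Red, 3.35 and 3.58 in tartrazine, and 3.79 and 4.02 in water. Both peaked in array 3 with the other 5 arrays within 1 log2 of each other. lipl-4, a lysosomal lipase known from fasting and longevity, read 6.70 and 4.50 in Ponceau Red, 2.77 and 4.21 in tartrazine, and 2.75 and 3.24 in water, with the tartrazine arrays far apart. bre-3, a glycosyltransferase of glycosphingolipid synthesis, read 8.29 and 5.97 in Ponceau Red, 6.04 and 5.96 in tartrazine, and 5.75 and 6.16 in water. The others were the acyltransferase-like oac-3 (2.52) and oac-31 (2.56), the fatty acid and retinol binding far-4 (2.54), the phospholipase ipla-2 (2.29), the phospholipid flippase tat-2 (2.18), slc-17.7 (2.16), the carboxylesterase F15A8.6 (2.16) and tag-38 (2.06), given with their peak differences.

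Most of the set is poorly described. The deposited description was uncharacterised for 75 of 136 genes (55.1%), against 37.4% of all named probe sets. The set holds 123 coding genes and 9 that their description calls non-coding, with peak differences of 2.08 to 2.74 in the 9. The 4 F-box or pals genes were fbxa-37, fbxa-158, C10C5.2 and B0284.2, at 2.03 to 2.21. By the deposited ontology, innate immune response covered 7 genes, 5.15% of the set and 1.05% of all named probe sets: F35E12.9, R07C12.3, C50F4.9, F22H10.2, F56D2.5, F08G2.5 and C10C5.2. The membrane term covered 51 (37.5% and 22.3%). Embryo development covered only 5 (3.68%, against 10.9%). The shares of all named probe sets include the families that the rule left out, and none of these differences was tested. Among the 123 coding genes in chromosome order, 6 pairs of successive members lay within 5 coding genes of each other. Of these, 3 were adjacent: ZK1240.8 with ZK1240.1, ZK1240.1 with F43C11.8, and lipl-4 with twk-10. Pairs with another member between them were not counted, and no matching count was made for other genes.

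The question of which tissue or stage these genes mark was put to 25 lists of marker genes written from textbook knowledge, with 576 genes. Only 2 of the 136 genes are in any of them, zmp-1 under vulva and uterus and lipl-4 under dauer and starvation. Some list genes belong to the families left out, among them all L4 collagens and many seam cell genes, so they could not be chosen. No share over the list genes open to the rule was worked out, so the count of 2 is no result about the set. The lists thus name no tissue for the set as a whole. Each list's median peak difference and share of genes highest in array 3 were also taken. They show which known tissues ran high in array 3, as the plot of list medians shows. General neuronal genes had the highest median, 0.47, with 22 of 25 genes (88%) highest in array 3, against -0.30 and 25.7% for all named probe sets. In 6 of them, unc-13, ida-1, unc-31, egl-3, rgef-1 and sbt-1, the peak difference was at least 1, and in none 2. egl-3, a convertase that processes neuropeptides, read 10.30 and 7.98 in Ponceau Red, 7.34 and 7.49 in tartrazine, and 8.89 and 9.03 in water.

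The other lists were lower. Seam cells (the lateral epidermal stem-like cells) had a median of 0.06 with 13 of 21 highest in array 3, the excretory and rectal list 0.03 with 12 of 22, ciliated neurons 0.03 with 22 of 38, and vulva and uterus 0.00 with 10 of 19. Body wall muscle lay at -0.01 with 13 of 28 and epidermis at -0.10 with 8 of 18. Moulting regulators had -0.13 with 10 of 22, the zona pellucida cuticlins -0.19 with 12 of 37 and moulting matrix genes -0.39 with 11 of 35. The cuticlin cutl-3 (1.97) and the fibrillin-like gene of the moult fbn-1 (1.80) came nearest to the threshold in these. Glia had -0.20 with 7 of 25, coelomocytes -0.18 with 1 of 6, the male list -0.25 with 3 of 17, epidermal damage and immune genes -0.38 with 5 of 25, and dauer and starvation -0.45 with 8 of 27. The pharyngeal lists lay at -0.36 (gland, 3 of 13), -0.61 (cuticle, 0 of 3) and -0.70 (muscle, 3 of 14). Intestine had -0.54 with 4 of 27, spermatogenesis -0.73 with 7 of 47 and cuticle shape collagens -1.13 with 1 of 24. The mixed list of oocyte, eggshell and germ line genes and the yolk list ran lowest. They had -4.89 with 0 of 36 and -8.88 with 0 of 6. The lists drawn up for L4 and for adult collagens each had a median of -0.24, with 1 of 5 highest in array 3. The adult list held unlike genes. In col-19 the arrays split as in the yolk genes. It read 2.40 and 8.12 in Ponceau Red, 6.93 and 7.91 in tartrazine, and 3.19 and 3.20 in water. rol-6 was instead highest in water, at 6.83 and 6.70, and read 3.07 to 3.46 in the dye arrays. col-62, bli-1 and bli-2 read 1.68 to 2.78 in all arrays. The peak differences of the lists describe 1 array, and the part of tissue makeup in the peak of the 136 genes was not tested.

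**Figure D4:**
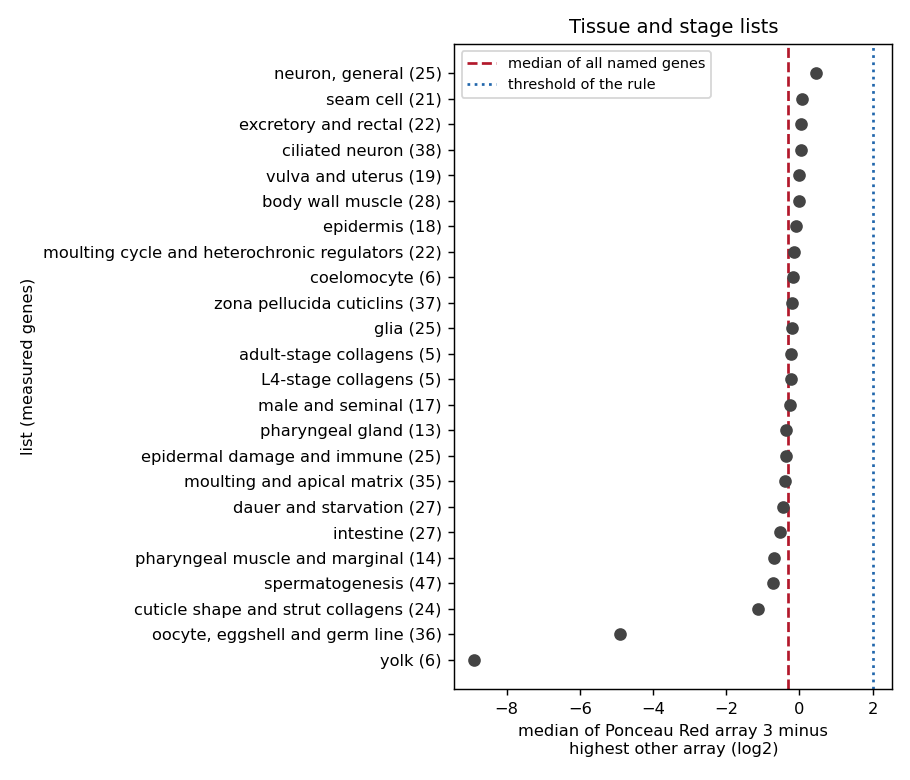
Median peak difference (Ponceau Red array 3 minus the highest other array, log2) of each marker gene list with at least 5 measured genes, beside the median of all named probe sets (dashed line) and the threshold of the rule (dotted line). General neuronal genes lie highest at 0.47. The list of oocyte, eggshell and germ line genes lies at -4.89 and the yolk list at -8.88.

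The other 5 arrays carried an order of their own. The next-highest array after array 3 was a water array for 100 of the 136 genes (73.5%), while a water array was highest of those 5 for 43.6% of all named probe sets. A tartrazine array came next for 26 and Ponceau Red array 2 for 10. In Ponceau Red array 2, which the rule used only as a bound, 89 genes were below both water arrays (65.4%, against 44.1% of all named probe sets) and 19 above both. The spread over the 5 arrays had a median of 0.79, against 0.74 for all, and was at least 2 in 13 genes. Water lay at least 1 log2 above the mean of the other dye arrays for 27 genes and at least 1 below it for none, and 109 lay between. For the 27, the 19 and the 13 no share over all named probe sets was worked out. All 5 arrays also entered the rule as its bound, so no result about the set is read from these counts.

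Tartrazine against water can be compared over replicates, since neither group holds the peak, though both entered the rule through the highest of the 5. On the 4 arrays alone, limma on the 27055 named probe sets called 35.0% at a Benjamini-Hochberg adjusted p under 0.05, two-sided, with 16.2% higher and 18.7% lower in tartrazine. Of the 136 genes, 2 rose in tartrazine (1.47%), 41 fell (30.1%) and 93 did not pass. In all, 31.6% were called, against 35.0% of the background. In a second deposited table of log2 signals for the same samples the counts were larger: 2 of the 136 rose and 94 fell, so 70.6% were called, against 43.4% of all named probe sets, and 69.1% against 30.4% fell. In the first table, on which the rest of this paragraph rests, the median change was -0.37, against 0.02 for all named probe sets. Both tartrazine arrays were below both water arrays in 83 genes (61.0%, against 34.0% of all) and above them in 11 (8.09%, against 33.8%). Centring each array on its median raises every change by 0.19. The set's median was then -0.18, against 0.21 for all named probe sets, and 29 genes fell (21.3%, against 14.2% of all) and 4 rose (2.94%, against 19.5%). With all 6 arrays in 1 fit, 0 of the 136 passed in limma and 0 had an unadjusted p under 0.05, because the gap between the Ponceau Red arrays that chose the genes enters the spread. The yolk and oocyte genes differed between tartrazine and water as given above, and their part in these changes was not tested.

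The 6 largest falls are given here. In any gene that fell, water lies between array 3 and tartrazine, because the rule puts array 3 above water. Y39G8B.9 read 2.77 and 2.68 in tartrazine, against 6.26 and 6.03 in water, and 8.84 and 2.80 in Ponceau Red. Its change was -3.42 ± 0.18 (SE, n = 2 arrays each, limma adjusted p = 6.51e-05), 10.7-fold lower. Y38H6C.24 read 1.40 and 1.78 in tartrazine, against 3.80 and 4.59 in water, a change of -2.61 ± 0.30 (limma adjusted p = 0.00102). kreg-1 fell by 2.55 ± 0.31 (limma adjusted p = 0.0013), from the signals given above. F43C11.8 fell by 2.32 ± 0.17 (limma adjusted p = 0.000169) and the acyltransferase-like gene oac-31 by 2.30 ± 0.21 (limma adjusted p = 0.000412). F20D6.8 read 2.20 and 2.51 in tartrazine, against 4.18 and 4.54 in water, a fall of 2.00 ± 0.21 (limma adjusted p = 0.000759). All 6 kept their call in each alternative other than the fit of 6 arrays.

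Falls per product group stand beside the 30.1% of the whole set and the 18.7% of all named probe sets that fell. The groups were drawn up after the values were seen, so no result about a single group is read from these counts. By group, 4 of 15 receptors fell (mth-2, sre-42, frpr-3 and frpr-18) and none rose. The methuselah-like receptor gene mth-2 read 3.38 and 3.26 in tartrazine, against 5.35 and 5.26 in water. Of the 9 secreted or matrix genes 4 fell, among them H32K21.1 by 1.40 ± 0.18 (limma adjusted p = 0.00172) and ndnf-1 by 1.49 ± 0.16 (limma adjusted p = 0.000875). Regulators gave 2 of 13, which are kreg-1 and cebp-1, the second at -1.35 ± 0.18 (limma adjusted p = 0.00174). Lipid and small-molecule genes gave 2 of 12 (oac-31 and far-4), the F-box and pals genes 3 of 4, the channels and partners 1 of 5 (twk-31) and the non-coding genes 2 of 9. Genes with no group made up 25 of the falls among 78, non-coding genes included. djr-1.2 and cnp-3, each with a peak over 3, changed by 0.23 ± 0.22 and 0.42 ± 0.17, which did not pass, and the median 95% interval of a change reached 0.48 on either side.

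The 2 rises were small. nra-1 read 5.18 and 5.74 in tartrazine, against 4.66 and 4.74 in water, a rise of 0.76 ± 0.23 (limma adjusted p = 0.046), which did not pass without tartrazine array 2, where it was 0.48 (limma adjusted p = 0.105), or without either water array (limma adjusted p = 0.178 and 0.132). In the second table the change of nra-1 was 0.35 (limma adjusted p = 0.427, and 0.337 when trials enter as a replicate block). K03C7.6, a non-coding gene, read 2.68 and 2.54 in tartrazine, against 1.81 and 1.95 in water, a rise of 0.73 ± 0.17 (limma adjusted p = 0.0189), which did not pass without tartrazine array 1 or without either water array (limma adjusted p = 0.0515, 0.137 and 0.0748). The plot of tartrazine against water shows fewer genes above the diagonal than below it. Those above include genes that did not pass, such as W09G12.9 and C50F4.9, with changes of 0.61 and 0.55. The authors' deposited table for tartrazine lists 1746 probe sets, of which 19 are in the set. That is 13.97% of the set, while 5.96% of all named probe sets are listed. Of these 19, the authors' deposited table gives 17 a ratio of tartrazine over control under 1 and gives C50F4.9 and K03C7.6 a ratio above 1.

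**Figure D5:**
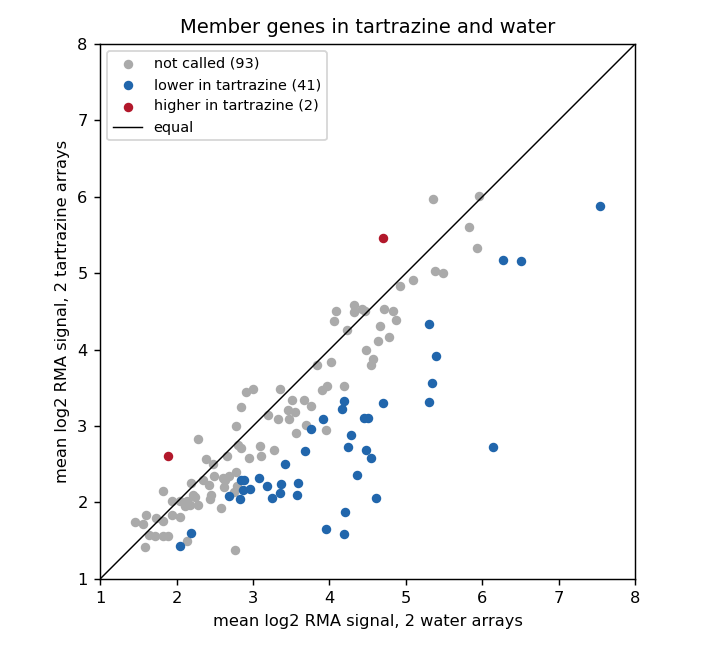
Mean log2 signal of the 2 tartrazine arrays against that of the 2 water arrays for the 136 genes, with the line of equal signal. Genes that fell in tartrazine (41) lie on the water side of the line and the 2 that rose on the tartrazine side.

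For Ponceau Red against water the group mean contains the array that chose the genes. In the fit of 6 arrays, limma called 2.59% of the named probe sets, 0.118% higher and 2.48% lower in Ponceau Red, and 0 of the 136 genes, of which 4 had an unadjusted p under 0.05. The 702 calls behind that share fell to 0 when any single water or tartrazine array was left out (2147 to 3227 at an unadjusted p under 0.05 in limma). The median of array 3 minus array 2 was 2.89 over the set and 0.08 over all named probe sets. Nothing about the effect of the dye on these genes is read from that comparison. In the authors' second table, whose columns name the trials, all 136 genes were highest in Ponceau Red trial 2, with peak differences of 1.39 to 4.86 and a median of 2.30, and 117 reached 2.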

How the data were processed

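RNA from 3.5 ng of total RNA per sample was measured on 6 Affymetrix arrays. The deposited values are log2 signals that the authors made with RMA, per the submitters' processing notes and the file headers. No source used here gives the RMA version, the array annotation release or the genome build. A second deposited log2 table, with 1 column per labelled sample, served as an alternative. The authors' deposited tartrazine table holds a linear ratio of colorant over control and an unadjusted p-value, per the file headers, and is used only to count genes. Their Ponceau Red table was not used here.

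Columns of the first table were given to groups by name, because their numbers do not all match those of the labelled trials. Names, neighbours and biotypes were taken from RefSeq (assembly WBcel235), in which 134 of the 136 genes matched and 19 had a newer symbol. Its gene positions served only to put the coding genes in order for the neighbours, and no sequences were printed.

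Tartrazine and water were set against each other by linear models in limma 3.58.1 (R 4.3.3; lmFit, then eBayes, 2 residual and 4.11 prior degrees of freedom) on the 4 arrays, with Benjamini-Hochberg adjustment over 27055 named probe sets and no filter on low signal. Errors are standard errors of the fit. Ponceau Red against water used all 6 arrays. The script was tested on simulated data.

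The 136 genes, the 25 marker lists, the tests and the rule for named genes were chosen with earlier results of these data known, and the product groups after seeing the values. By that rule the text names the 25 largest peaks, members in a list, the 3 genes on either side of the threshold and up to 6 changed members per direction. The genes named for their product were chosen after their values were seen. Alternatives covered the threshold, centring, arrays left out, low signal, annotation, the second table and a replicate block.

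With the labelled trials of the second table, deviations from the group means correlated across probe sets at 0.04 between Ponceau Red and water, at 0.17 between tartrazine and water and at -0.04 between Ponceau Red and tartrazine. The trial numbers were therefore not taken to pair the samples.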

Additional observations from a re-analysis of the deposited data

How the results depend on the processing

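The count of 136 genes became 364 at a threshold of 1.5 log2 and 13 at 3, and 180 with each array centred on its median (133 shared). Leaving out 1 of the other arrays gave 141 to 193, the highest without water array 2. Of the 136, 117 kept the difference in the second table, and the rule redone there found 131, 117 of them shared. The marker list genes in the set, 2 in all, became 5 at 1.5, 0 at 3 and 4 after centring, and 2 to 4 without 1 array, with 4 when water array 2 was left out.

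For tartrazine against water, limma called 9463 probe sets (46.4% higher in tartrazine), 9133 after centring (57.9% higher), 11752 in the second table (29.9% higher) and 1083 with all 6 arrays (129 higher and 954 lower). It called 43 of the 136 genes, 0 with all 6 arrays (0 at an unadjusted p under 0.05), 96 in the second table (70.6%, against 43.4% of all probe sets) and 33 after centring (24.3%, against 33.8%), and 23 to 46 without 1 array, with 23 when water array 2 was left out (16.9%, against 27.3%). The median change of the set was -0.37, against 0.02 for all probe sets, and in the second table -0.79, against -0.23. With the labelled trial as a replicate block, which only the second table allows, 12580 probe sets (46.5%) and 99 of the 136 genes (72.8%) were called, with a median of -0.79. No block was run on the first table, whose columns do not name the trials. Over 8 named genes and 72 comparisons, 56 kept direction and call, 16 lost the call and 0 reversed.

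For Ponceau Red against water, 0 of the 136 genes were called, and 0 to 136 without 1 array: 136 without Ponceau Red array 2 (11.2% of all probe sets), 28 without Ponceau Red array 3 (20.6%, against 26.01% of all) and 0 without any other. Without array 2 the group is array 3 alone, whose values chose the genes, so that the 136 calls are fixed by the choice. In both cases the lone array is assumed to vary like the other groups. Over all probe sets the calls were 702, and 3017 and 7037 without Ponceau Red array 2 or 3. The files used here hold no detection calls, so values near the array medians cannot be told from background, and 2 arrays per group limit all tests. The causes of these differences were not tested, beyond the changes in samples named.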

Other observations

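Genes of the 21 families left out also reached the threshold in Ponceau Red array 3. There were 14 of them, so that 150 of 27055 named probe sets (0.554%) peaked there in all. The insulin-like gene ins-11 read 9.04 in Ponceau Red array 3 and 3.57 in array 2, 3.49 and 3.86 in tartrazine, and 4.72 and 4.82 in water. The nuclear receptor gene nhr-6 read 8.09 and 2.74 in Ponceau Red, 2.65 and 2.38 in tartrazine, and 4.09 and 4.10 in water. In both genes water lay above the dye arrays other than array 3. Of 278 nuclear receptor genes 6 reached the threshold (2.16%), and of 250 C-type lectin genes 3 (1.2%), led by clec-6 at 3.21. The others were hsp-4, a chaperone gene of the unfolded protein response (2.14), nlp-46 (2.51), gst-19 (2.46) and ptr-8 (2.06).

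Among the neuropeptide families, 24 of 31 flp genes (77.4%) and 56.8% of 44 nlp genes were highest in array 3, against 25.7% of all named probe sets, with a median peak difference of 0.80 and 0.16. No flp gene reached 2. Of 152 col collagen genes 7.89% were highest in array 3 and 0 reached 2. These are values of 1 array, and no test was made.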
